A study of Solanum lycopersicum with 4 samples.

Results

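The 72 genes annotated on the mitochondrial genome of tomato (*Solanum lycopersicum*) are described here, out of 35821 genes in the deposited table of counts. They are every gene placed on the mitochondrial sequence, and no measured value decides which genes belong. This part of the genome was picked with earlier results of these data known. The fourth leaf was taken from plants 1 month old, and its poly(A) RNA was sequenced in 2 libraries of *ddm1* and 2 libraries of WT. WT was the cultivar M82, and *ddm1* was the *Slddm1a/Slddm1b* double mutant, mutated in both genes for the nuclear chromatin remodeler DDM1. Plants of both genotypes were grown on soil at 24°C with 16 h of light and 8 h of dark. The study names the 2 libraries per genotype as independent biological replicates, and neither the mutant alleles nor the number of plants per library is given in the sources used here.

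Plant mitochondria keep a small genome of their own, which codes for some subunits of the respiratory chain and ATP synthase, for proteins that mature cytochrome c, for part of the mitochondrial ribosome, and for rRNAs and tRNAs. All other mitochondrial proteins come from nuclear genes. Transcripts of plant mitochondria are spliced at group II introns, edited at many cytidines and processed at both ends. A poly(A) tail in plant mitochondria generally marks an RNA for degradation, in contrast to the tails of nuclear mRNAs. A poly(A) library therefore samples only a part of the organelle's RNA.

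The libraries held from 5462981 to 6887057 counts. Libraries of the same genotype were compared by chi-square over genes, which gave 5.21 per degree of freedom in *ddm1* and 4.40 in WT. They thus differed beyond counting noise and were treated as separate replicates. Nuclear identifiers are paired with no gene name in the files. The level of the DDM1 genes and leaf markers were therefore not checked here.

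By their symbols, the 72 genes held 6 genes of complex I (nad), 2 of complex II (sdh), 1 of complex III (cob), 2 of complex IV (cox) and 6 of complex V (atp). A further 4 code for cytochrome c maturation proteins (ccm), 1 for a protein translocase (mttB), 1 for an intron maturase (matR) and 17 for ribosomal proteins (rpl and rps, with rps14 annotated as a pseudogene). The remaining genes were 5 rRNA genes and 27 tRNA genes. None of the 72 genes has the symbol nad1, nad2, nad5 or cox2. On the sequence, 42 genes lie on the plus strand and 30 on the minus strand, and the spans run from 71 bp for a tRNA gene to 8657 bp for nad4. Besides tRNA genes, 8 symbols occur as a pair of copies (rps3, rps19, rpl16, rpl2, rpl10, atp9, rrn18 and rrn5). The counts of such copies are uncertain, because reads that fit several places equally well get a low mapping quality and fall under the minimum of 30 that the authors set. Only 6 genes overlapped another annotated gene, always on the same strand. These were cox3 with sdh4 over 73 bp, and rps3 with rpl16 over 110 bp in both pairs of copies. Reads in those stretches were counted for both genes.

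Most of the 72 genes had few reads. No read was counted for 23 genes in any of the 4 libraries, of which 19 were tRNA genes, 3 belonged to a pair of copies, and 1 was rps12. A count of 0 over all 4 libraries allows a level of up to 0.121 CPM (counts scaled to the normalized library size; 3 counts over the 4 libraries), which covers counting error only. For genes present in several copies, tRNA genes included, reads can also be lost to the mapping quality minimum, so this bound need not hold. A further 20 genes had 1 to 9 counts over the 4 libraries. 29 genes had 10 or more, and 20 of these passed the filter on low counts and were tested.

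Mitochondrial genes together took up more of the *ddm1* libraries than of the WT libraries. They held 3932 and 3321 counts in the *ddm1* libraries, 0.0595% (95% Wilson interval 0.0577% to 0.0614%) and 0.0482% (0.0466% to 0.0499%) of all counts. In WT they held 1685 and 1485 counts, 0.0289% (0.0276% to 0.0303%) and 0.0272% (0.0258% to 0.0286%). These intervals cover counting error only. The genotypes did not overlap, and the means were 0.0539% ± 0.00796 (SD, n = 2) and 0.0280% ± 0.00122 (SD, n = 2). The share was thus 1.92 times that of WT, a log2 ratio of 0.94. Without the 5 rRNA genes the log2 ratio was 1.41, and without the 8 protein-coding genes whose span is not a multiple of 3, a set made after the values had been seen, it was 0.37. The share is a sum over genes that changed unequally, with log2 fold changes of 0.08 for rrn26 and 1.89 for nad4. The cause was not tested. In leaf tissue, the number of mitochondria or cells, the RNA in each, and the part of it with a poly(A) tail cannot be told apart.

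Of the 20 genes tested, 9 were up-regulated in *ddm1* (edgeR's quasi-likelihood test, Benjamini-Hochberg adjusted p under 0.05 over the 21289 genes tested). None was down-regulated by edgeR or by DESeq2. The share of all tested genes was 25.3% for up-regulation and 23.7% for down-regulation. The median log2 fold change of the 20 genes was 1.10, beside 0.016 over all genes tested. In 13 of the 20 genes each *ddm1* library was higher than each WT library, an arrangement seen in 40.1% of all genes tested, and in 0 genes was each lower, against 38.3%. A gene near 0 counts in WT can pass the filter through its *ddm1* counts, so these numbers describe the 20 genes and not the 72. With 10 counts required in every library, 13 genes were tested and 7 were up-regulated. The share up-regulated over all genes was not computed for this filter. The median log2 fold change was 1.09, beside 0.0012 over all 18151 genes tested. The plot of levels by library shows the 20 genes.

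**Figure D1:**
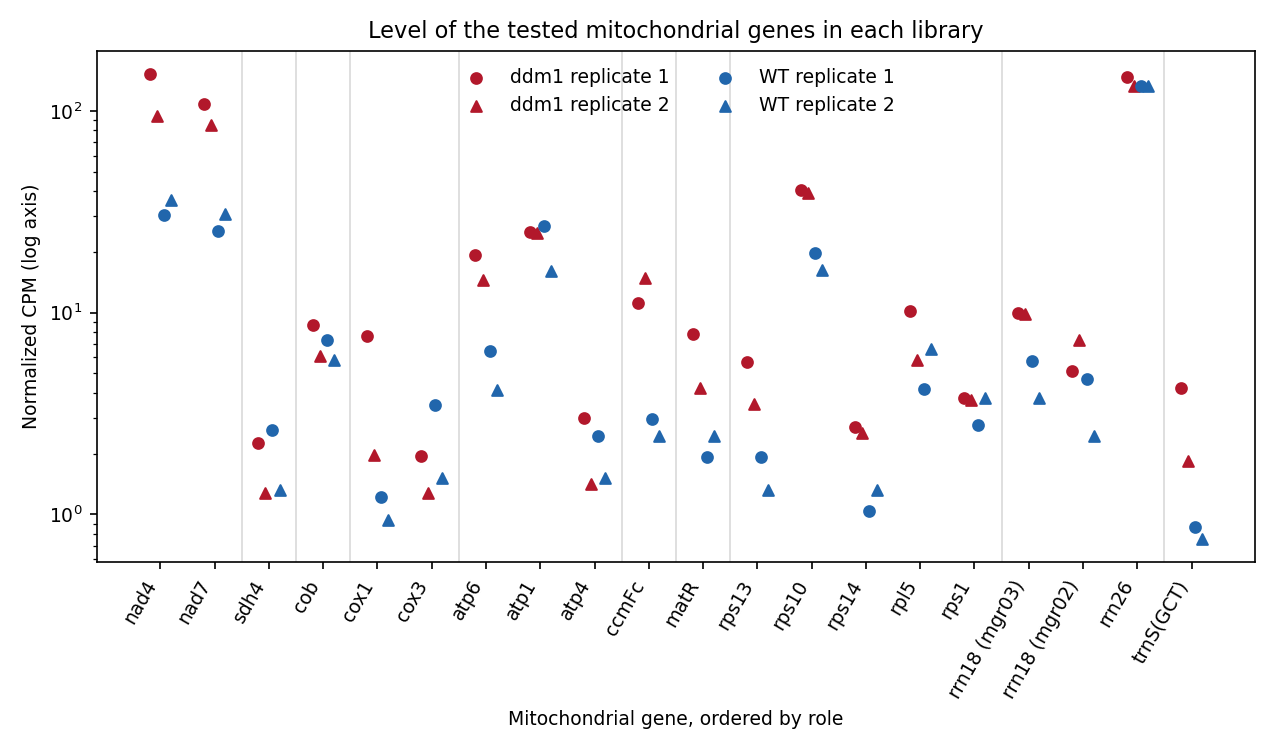
Level of each of the 20 tested mitochondrial genes (x axis, ordered by role from complex I to tRNA) in the 4 libraries, in CPM of the normalized library size on a log axis; each point is 1 library. The *ddm1* points of nad4 and nad7 lie from 85.2 to 152 and the WT points from 25.3 to 36.2, while the 4 points of rrn26 lie between 132.4 and 147.6.

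The calls were not equally firm. Of the 9 genes, 5 (nad4, nad7, ccmFc, rps10 and atp6) passed the threshold under edgeR, DESeq2, each scaling and filter, and when any single library was left out. The other 4, matR, rps13, rrn18 (mgr03) and trnS(GCT), had between 50 and 189 counts over the 4 libraries. These 4 did not pass with DESeq2, where 5 genes were up-regulated beside 20.8% of all genes tested. Fewer genes were up-regulated without *ddm1* replicate 1, WT replicate 1 or WT replicate 2. The median log2 fold change of the tested genes was then 1.06, 1.29 and 1.13.

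Complex I, the NADH dehydrogenase through which most electrons enter the respiratory chain, gave the largest rise in reads, almost wholly on nad4 and nad7. These genes have the longest spans of all members. They held 1735 and 1267 of the 1748 and 1277 complex I counts in the *ddm1* libraries. The gene nad4, which codes for a proton-pumping subunit of the membrane arm, lies from 305165 to 313821 on the plus strand. The level of nad4 was 152 and 93.8 CPM in the *ddm1* libraries and 30.5 and 36.2 CPM in WT. The lower *ddm1* library was well above the higher WT library, although the *ddm1* libraries were unequal. The log2 fold change was 1.89 (standard error, SE, 0.25; edgeR adjusted p = 0.00137), a 3.69-fold rise. The second tested gene of complex I, nad7, codes for a core subunit of the peripheral arm and lies from 352956 to 358254 on the minus strand. The level of nad7 was 108 and 85.2 CPM in *ddm1* and 25.3 and 30.9 CPM in WT, again without overlap. Its log2 fold change was 1.79 (SE 0.17, edgeR adjusted p = 0.000517), a 3.45-fold rise.

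These 2 genes lie 39134 bp apart and on opposite strands. The ratio of nad4 to nad7 counts was 1.41 and 1.10 in *ddm1* and 1.21 and 1.17 in WT. Both WT ratios lay between the *ddm1* ratios, and a link between the 2 genes was not tested. The other 4 complex I genes were too low to test. nad6 had 8 and 4 counts in *ddm1* against 3 and 2 in WT, and nad4L had 3 and 2 against 1 and 0. nad3 had 0 and 1 counts in *ddm1* against 3 and 2 in WT, and nad9 had 2 and 3 against 4 and 0.

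No gene of complexes II, III and IV passed the test. For complex II, sdh4, a membrane anchor of succinate dehydrogenase, had 2.25 and 1.27 CPM in *ddm1* and 2.61 and 1.32 CPM in WT (log2 fold change -0.17, SE 0.54). The second anchor gene, sdh3, had 1 or 2 counts in each library. For complex III, cob, which codes for cytochrome b, had 8.72 and 6.08 CPM in *ddm1* and 7.31 and 5.84 CPM in WT (log2 fold change 0.17, SE 0.34). The genotypes overlapped in both genes.

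The 2 genes of complex IV, cytochrome c oxidase, had unlike values. The level of cox1, the catalytic subunit with the heme and copper centre, was 7.66 and 1.98 CPM in *ddm1* and 1.22 and 0.942 CPM in WT. Both *ddm1* libraries lay above WT, but *ddm1* replicate 1 was 3.87 times replicate 2, the widest gap between *ddm1* libraries among the 20 genes. The log2 fold change of 2.12 (SE 0.75) missed the threshold (edgeR adjusted p = 0.0542). It ranged from 0.89 without *ddm1* replicate 1 to 2.80 without *ddm1* replicate 2 and passed in the latter case, and with a few other settings its adjusted p fell just below the threshold (0.0366 to 0.0499). cox3, a structural core subunit, had 1.95 and 1.27 CPM in *ddm1* and 3.48 and 1.51 CPM in WT. The genotypes overlapped, and its log2 fold change of -0.64 (SE 0.55, edgeR adjusted p = 0.370) was the lowest of the 20 genes.

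For complex V, the ATP synthase, 3 genes could be tested. atp6 codes for the membrane subunit through which protons pass, and lies from 425133 to 426473 on the plus strand. The level of atp6 was 19.2 and 14.6 CPM in *ddm1* and 6.44 and 4.14 CPM in WT, without overlap. It rose 3.17-fold (log2 fold change 1.66, SE 0.33, edgeR adjusted p = 0.00659). In contrast, atp1, which codes for the alpha subunit of the catalytic head and lies from 188669 to 190204 on the plus strand, had 25.1 and 24.7 CPM in *ddm1* and 27.0 and 16.0 CPM in WT. WT replicate 1 was the highest of the 4 libraries, so the genotypes overlapped (log2 fold change 0.21, SE 0.26, edgeR adjusted p = 0.545).

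Within a library, the ratio of atp6 to atp1 counts was 0.766 and 0.589 in *ddm1* and 0.239 and 0.259 in WT. This ratio does not depend on library scaling. The third gene, atp4, a subunit of the peripheral stalk, had 3.01 and 1.41 CPM in *ddm1* and 2.44 and 1.51 CPM in WT (log2 fold change 0.15, SE 0.54). The untested atp8 had 7 and 7 counts in *ddm1* against 8 and 7 in WT, and the 2 copies of atp9, which codes for the ring subunit, summed to 4 and 4 counts in *ddm1* against 1 and 0 in WT.

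Of the 4 genes for cytochrome c maturation, the pathway that attaches heme to apocytochrome c, only ccmFc had enough reads to test. ccmFc codes for part of the heme lyase and lies from 100079 to 102344 on the plus strand. Its level was 11.1 and 14.8 CPM in *ddm1* and 2.96 and 2.45 CPM in WT. The genotypes were far apart, and here *ddm1* replicate 2 was the higher one. The log2 fold change was 2.25 (SE 0.34, edgeR adjusted p = 0.00238), a 4.77-fold rise and the largest of the 9 up-regulated genes. The other part of the heme lyase, ccmFN, had 8 and 4 counts in *ddm1* against 4 and 5 in WT, and ccmB and ccmC had from 1 to 3 counts in any library. mttB, a translocase component related to TatC, had 2 counts in *ddm1* replicate 1 and 0 in the other libraries.

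matR codes for a maturase that helps to splice group II introns and, in flowering plants, lies inside an intron of nad1. It lies from 269623 to 271599 on the plus strand. The level of matR was 7.81 and 4.24 CPM in *ddm1* and 1.92 and 2.45 CPM in WT, without overlap. It rose 2.75-fold (log2 fold change 1.46, SE 0.46, edgeR adjusted p = 0.0370). The log2 fold change was 0.98 without *ddm1* replicate 1, 1.28 without WT replicate 1 and 1.64 without WT replicate 2, with edgeR adjusted p = 0.229, 0.166 and 0.117.

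Among the 17 genes for ribosomal proteins, 5 were tested, 2 rose and 0 fell, beside 25.3% and 23.7% of all genes tested. rps10, a protein of the small subunit, lies from 314088 to 315225 on the plus strand and was the most read of the class. Its level was 40.7 and 39.0 CPM in *ddm1* and 19.9 and 16.2 CPM in WT. Replicates were close to each other, and the log2 fold change was 1.14 (SE 0.17, edgeR adjusted p = 0.00224), a 2.21-fold rise. rps13, also of the small subunit, lies from 375286 to 375636 on the minus strand and had 5.71 and 3.53 CPM in *ddm1* and 1.92 and 1.32 CPM in WT. It rose 2.82-fold (log2 fold change 1.49, SE 0.46, edgeR adjusted p = 0.0341). The log2 fold change was 1.14 without *ddm1* replicate 1, 1.78 without WT replicate 1 and 1.25 without WT replicate 2, with edgeR adjusted p = 0.214, 0.0938 and 0.185.

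The other 3 tested genes of this class missed the threshold. The pseudogene rps14 had 2.70 and 2.54 CPM in *ddm1* and 1.04 and 1.32 CPM in WT (log2 fold change 1.14, SE 0.43, edgeR adjusted p = 0.0687), without overlap. rpl5, of the large subunit, ends 1 bp before rps14 and had 10.2 and 5.79 CPM in *ddm1* and 4.18 and 6.59 CPM in WT (log2 fold change 0.57, SE 0.42). rps1 had 3.76 and 3.67 CPM in *ddm1* and 2.79 and 3.77 CPM in WT (log2 fold change 0.18, SE 0.37). In the last 2 genes the genotypes overlapped.

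The small-subunit gene rps3 was read in *ddm1* and not in WT. Its copy from 3066 to 5827 had 2 and 10 counts in *ddm1* and 0 in both WT libraries, and its copy from 115640 to 118401 had 8 and 14 counts in *ddm1* and 0 in both WT libraries. Both copies lie on the minus strand. Their sum was 10 and 24 counts in *ddm1*, at least 4.50-fold higher than a floor of 3 counts in each WT library. From *ddm1* replicate 1 alone, the bound was at least 2.76-fold. Neither copy passed the filter on low counts. With every gene with a count tested, where 20.7% of genes were up-regulated, the second copy passed (edgeR adjusted p = 0.0131) and the first did not (edgeR adjusted p = 0.0686). The copy of rpl2 from 242373 to 245283 had 10 and 1 counts in *ddm1* against 2 and 1 in WT, and rps4 had 4 and 9 counts in *ddm1* against 6 and 4 in WT. The remaining 8 genes of the class had from 0 to 3 counts in any library.

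The gene with the most reads over the 4 libraries changed little. This gene, rrn26, codes for the rRNA of the large ribosomal subunit and lies from 166528 to 170022 on the plus strand. Its level was 147.6 and 132.7 CPM in *ddm1* and 132.4 and 132.6 CPM in WT. *ddm1* replicate 2 and both WT libraries were almost equal, and the log2 fold change was 0.08 (SE 0.10, edgeR adjusted p = 0.546). This was the smallest standard error of the 20 genes.

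The rRNA of the small subunit, rrn18, is annotated as a pair of copies of equal length. The copy mgr03, from 262513 to 264458 on the minus strand, had 9.92 and 9.89 CPM in *ddm1* and 5.75 and 3.77 CPM in WT (log2 fold change 1.05, SE 0.33, edgeR adjusted p = 0.0390). It lost the call without WT replicate 2 (log2 fold change 0.78, edgeR adjusted p = 0.174), without *ddm1* replicate 1 (1.08, edgeR adjusted p = 0.0783) and without *ddm1* replicate 2 (1.05, edgeR adjusted p = 0.0853). The copy mgr02, from 380865 to 382810 on the plus strand, had 5.11 and 7.35 CPM in *ddm1* and 4.70 and 2.45 CPM in WT (log2 fold change 0.79, SE 0.44, edgeR adjusted p = 0.177). With the copies summed, a setting chosen after seeing the data, rrn18 had 100 and 122 counts in *ddm1* against 60 and 33 in WT (log2 fold change 0.95, SE 0.32, edgeR adjusted p = 0.0457). The 2 copies of rrn5 had at most 1 count in a library.

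Reads on tRNA genes came mostly from 3 neighbours on the plus strand, trnS(GCT), trnF(GAA) and trnP(TGG), which lie between 185333 and 186181. tRNA genes are about as long as a read, so a count here means a read that overlaps the gene and not a mature tRNA. trnS(GCT) had 28 and 13 counts in *ddm1* against 5 and 4 in WT, levels of 4.21 and 1.84 CPM against 0.871 and 0.753 CPM. It was up-regulated (log2 fold change 1.86, SE 0.60, edgeR adjusted p = 0.0406), with *ddm1* replicate 1 well above replicate 2. Without *ddm1* replicate 1 the log2 fold change was 1.18 (edgeR adjusted p = 0.329), and without WT replicate 1 or WT replicate 2 it was 1.96 (edgeR adjusted p = 0.154) and 1.76 (edgeR adjusted p = 0.191). trnF(GAA) had 9 and 17 counts in *ddm1* against 2 and 7 in WT, and trnP(TGG) had 7 and 7 in *ddm1* and 4 and 3 in WT, both untested. The other 24 tRNA genes had from 0 to 3 counts in any library, and 19 of them had none.

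**Figure D2:**
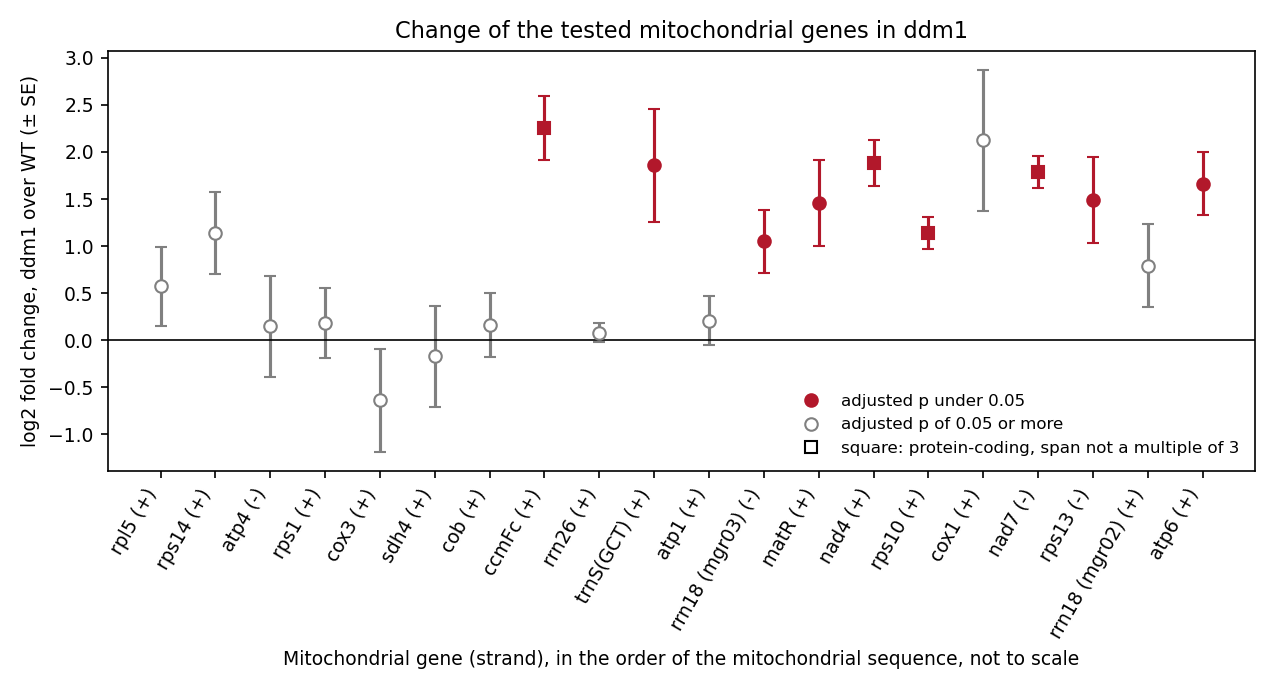
Log2 fold change of *ddm1* over WT (y axis, with the standard error as bars, from 2 libraries per genotype) for the 20 tested mitochondrial genes in the order of the mitochondrial sequence, with the strand in brackets. Filled red symbols passed an adjusted p of 0.05, and the 4 squares, protein-coding genes whose span is not a multiple of 3, lie between 1.14 and 2.25.

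Strand and position were compared next. Of the genes tested, 6 of 16 on the plus strand and 3 of 4 on the minus strand were up-regulated, beside 25.3% of all genes tested. The medians were 0.97 and 1.27. matR and trnS(GCT) on the plus strand and rps13 and rrn18 (mgr03) on the minus strand lost the call with DESeq2. With so few genes, a difference between the strands was not tested. The neighbouring plus-strand genes nad4, rps10 and cox1 are separated by gaps of 266 bp and 162 bp and had log2 fold changes of 1.89, 1.14 and 2.12, the last below the threshold. The next gene on that strand, ccmFN, starts 2633 bp after cox1 and had the low and overlapping counts given above. The neighbours rps1, atp8, cox3 and sdh4, in one stretch of the plus strand, had log2 fold changes between -0.64 and 0.18 where they were tested. The plot of changes in sequence order shows these stretches.

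A protein-coding gene read from 1 uninterrupted frame has a span that is a multiple of 3. The spans of nad4, nad7, ccmFc, rps10, both copies of rps3 and both copies of rpl2 are not, and these are genes that carry group II introns in flowering plants. This grouping was made after the values had been seen, so it is described and not tested. All 4 of these genes that passed the filter were up-regulated, with log2 fold changes from 1.14 to 2.25 and a median of 1.84. Among the 11 tested protein-coding genes with a span that is a multiple of 3, 3 were up-regulated (atp6, rps13 and matR) and the median was 0.21. Over all genes tested, 25.3% were up-regulated and the median was 0.016. The 8 genes of the first kind held 2102 and 1676 counts in *ddm1* against 456 and 456 in WT. The 31 of the second kind held 681 and 526 counts in *ddm1* against 390 and 268 in WT. These are raw counts, not scaled to library size, and the *ddm1* libraries were larger than the WT libraries. Genes were counted over the whole span, so that reads of introns and of exons cannot be told apart.

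The make-up of the mitochondrial reads differed between the genotypes. rrn26 made up 46.3% ± 1.63 (SD, n = 2) of the mitochondrial counts in WT and 26.6% ± 2.33 in *ddm1*. nad4 and nad7 together made up 21.5% ± 3.52 in WT and 41.1% ± 4.22 in *ddm1*. For neither did the genotypes overlap. These 3 genes together held 67.7% ± 5.15 of the mitochondrial counts in WT and 67.8% ± 1.89 in *ddm1*, and the other 69 genes held a similar joint share in both genotypes. Ribosomal protein genes held 10.9% ± 0.0496 in WT and 12.1% ± 0.975 in *ddm1*. The count of nad4 for each count of rrn26 was 1.03 and 0.707 in the *ddm1* libraries and 0.230 and 0.273 in WT. Whether the change of one gene exceeded that of another was not tested.

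**Figure D3:**
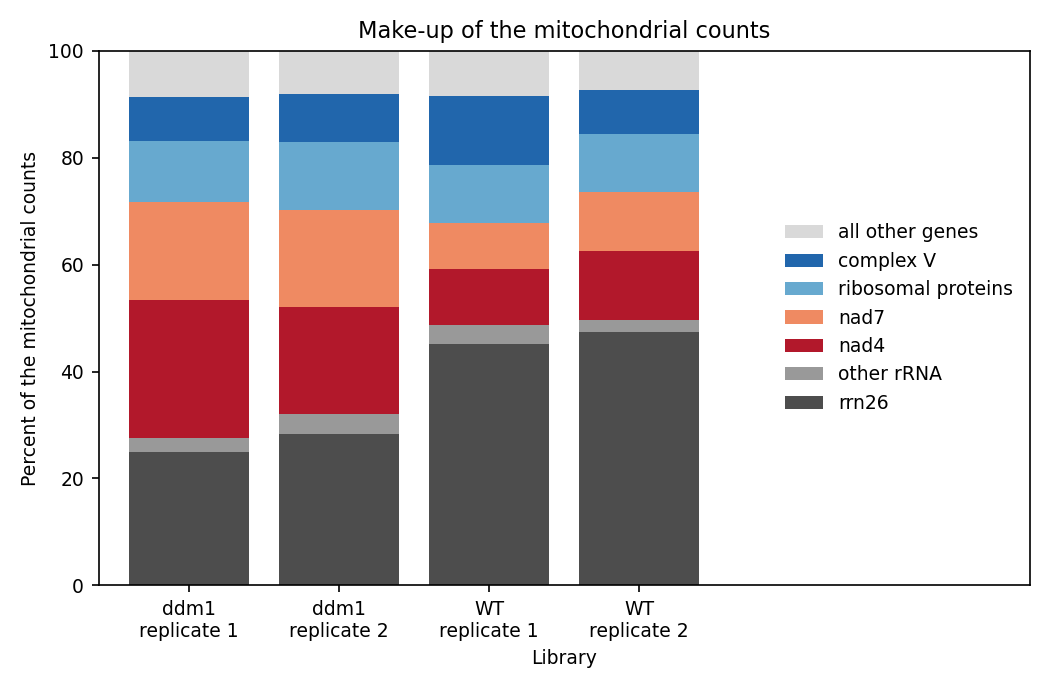
Make-up of the mitochondrial counts in each of the 4 libraries (x axis), as percent of all counts on the 72 mitochondrial genes (y axis), stacked by gene or class. The rrn26 bars average 46.3% in WT and 26.6% in *ddm1*, and the nad4 and nad7 bars together 21.5% and 41.1%.

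On the scale of CPM per kb of gene span, rrn26 had the highest level of the tested genes in both genotypes, 37.9 in WT and 40.1 in *ddm1*. In WT it was followed by rps10 at 15.8, atp1 at 14.0 and rpl5 at 9.81. In *ddm1*, leaving out the short trnS(GCT), rps10 stood at 35.0, nad7 at 18.3, atp1 at 16.2 and rpl5 at 14.6. nad4 was at 3.85 in WT and 14.2 in *ddm1*. The spans of nad4, nad7 and rps10 may include introns, so their rank against the other genes is uncertain. The lowest tested gene in *ddm1* was cox3 at 2.02.

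Plastid genes, measured in the same libraries, went in the opposite direction. Of 142 plastid genes 70 were tested, 59 were down-regulated and 0 up-regulated, with a median log2 fold change of -1.68. Over all genes tested, 23.7% were down-regulated and 25.3% up-regulated. The plastid ndh genes, which code for a complex related to complex I, had a median of -2.04 over 9 genes tested, all of them down-regulated. The 2 tested mitochondrial nad genes rose. For atp genes, the medians were -0.92 over 4 plastid genes and 0.21 over 3 mitochondrial genes. For genes of ribosomal proteins, they were -1.44 over 18 plastid genes, of which 13 fell, and 1.14 over 5 mitochondrial genes. The difference between the organelles was not tested.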

How the data were processed

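Poly(A) RNA-seq of 2 *ddm1* and 2 WT libraries was used. Trimming was done by the authors with Trimmomatic 0.38 and mapping with Hisat2 on the M82 genome. Per the file headers, PCR duplicates had been removed, and featureCounts 2.0.0 assigned reads to genes by reverse strand where the mapping quality reached 30, and allowed multi-mapping reads and reads on several genes. The deposited table holds raw counts and no normalized values. Its columns were matched to samples by genotype, library number and S number, and the WT names in the sample descriptions carry an extra tag that the column names lack. Without read pairs, duplicate removal limits how many reads each position can keep. It can lower counts and differences in short genes and in densely read ones such as rrn26, and its size was not tested.

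Genes were kept with filterByExpr (minimum count 10), scaled with TMM and tested by the quasi-likelihood functions glmQLFit and glmQLFTest of edgeR 4.0.16 (in R 4.3.3) on the genotype alone, over nuclear, plastid and mitochondrial genes, with Benjamini-Hochberg adjustment. CPM values use the TMM library size. The fits were run on simulated data with the same dispersion for every gene. That run checks the code and says nothing on the calls made here. DESeq2 1.42.0, other scalings and filters, a replicate block, other thresholds, and each library left out were the alternatives. Names came from RefSeq (assembly SLM_r2.1), which matched all 72 genes with the same start and end. Members and lists were chosen with earlier results of these data known. Every tested gene is named with values, every other gene of 10 or more counts with its counts, and the rest by class. Exact permutation of 2 against 2 libraries cannot give p under 0.333, and no such p is given. Batches are not given in the sources used here, so a batch and the genotype cannot be told apart.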

Additional observations from a re-analysis of the deposited data

How the results depend on the processing

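The mitochondrial share kept its direction under every alternative run. Its log2 ratio of 0.94 was 1.41 without rRNA genes and 0.37 without the protein-coding genes whose span is not a multiple of 3 (chosen after seeing the data), and from 0.78 to 1.08 when single libraries were left out. The median log2 fold change of 1.10 ranged from 0.92, with every gene with a count tested, to 1.29, without WT replicate 1. The 9 up-regulated genes became 5 with DESeq2 and 5 with an adjusted p under 0.01, 10 with RLE factors, with total counts as library size and with every gene with a count, and 7 with 10 counts required in every library. They ranged from 5 to 9 with each library left out (5 without WT replicate 2 and 5 without *ddm1* replicate 1), where the lone library is assumed to vary like the other genotype. The number of down-regulated genes was 0 in each of these fits. Apart from DESeq2 and the test of every gene with a count, the share called over all genes was not computed for these settings. Those counts can therefore not be set against such a share.

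For 6 of the 11 tested genes that missed the threshold, the log2 fold change crossed 0 when 1 library was left out. Over the libraries left out it ranged from -0.45 (without *ddm1* replicate 1) to 0.60 for atp4, which was also below 0 (-0.15) without WT replicate 2. For rps1 it ranged from -0.027 (without WT replicate 1) to 0.41, for cox3 from -1.11 to 0.086 (without WT replicate 1), for cob from -0.085 (without *ddm1* replicate 1) to 0.40, and for atp1 from -0.12 (without WT replicate 2) to 0.63. For sdh4 it ranged from -0.60 to 0.40 (without WT replicate 1), and was 0.19 without *ddm1* replicate 2. cox1 passed the threshold in 5 of its 12 alternatives: RLE factors, total counts as library size, every gene with a count, the replicate block and without *ddm1* replicate 2. The cause was not tested.

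Libraries with the same replicate number in their titles, a number that the library names of *ddm1* do not carry, did not deviate together (correlation 0.00357 over 21289 genes), and the replicate number as a block left 7 genes up-regulated. matR, rrn18 (mgr03) and trnS(GCT) were lost and cox1 gained. The share called over all genes was not computed with this block, so its count cannot be set against such a share. The up-regulated gene with fewest reads had 50 counts over the 4 libraries.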
